A study of Mus musculus with 6 samples.

Results

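The keratins described here are the 10 of basal and stratified epithelium, Krt5, Krt14, Krt15, Krt17, Krt6a, Krt6b, Krt16, Krt1, Krt10 and Krt13. Each was taken from the gene table by its symbol, using the entry with the highest mean where a symbol stood on several, and all 10 were found among 37753 entries with values. Keratins are the intermediate filament proteins of epithelial cells, and each filament is built from pairs of a type I and a type II chain. In the mammary gland Krt5 and Krt14 mark the basal and myoepithelial layer, whereas the simple keratins Krt8, Krt18 and Krt19 mark the luminal layer. In stratified epithelium Krt1 and Krt10 replace Krt5 and Krt14 as cells leave the basal layer, Krt6a, Krt6b, Krt16 and Krt17 accompany wounding and hyperproliferation, and Krt13 is a keratin of moist mucosal linings.

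Gene expression was measured by RNA-seq in 3 primary mammary epithelial cell (MEC) preparations, labelled WT_1 to WT_3, and in 3 mammary tumor cell lines, labelled TMR_199, TMR_233 and TMR_336, which form the MEKO group. The study asked how expression in tumor cells without JNK differs from that in mammary epithelial cells. All samples are C57/Bl6J and carry the Cre transgene, with genotype WAPCre+ in MEC and Mapk8KO Mapk9KO Cre+ in MEKO (Mapk8 and Mapk9 encode JNK1 and JNK2). The Wap promoter that drives Cre belongs to a milk protein gene and is active in luminal rather than basal cells. Each MEC preparation pooled 3 to 5 virgin females aged 10 to 12 weeks and was harvested as a nearly confluent primary culture on collagen I. Each line was grown out of a dispersed tumor with 2 passages on collagen I, then moved to ordinary dishes. In the study, tumors of this genotype came from parous and older mice. Genotype, tumor origin, parity, age and time in culture therefore cannot be told apart. In the study's records mouse 199 had adenosquamous carcinoma, mouse 233 had both adenosquamous carcinoma and adenocarcinoma, and mouse 336 had adenocarcinoma. Lines and mice were matched by number alone.

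Values are FPKM (fragment counts scaled to transcript length and to the mapped fragments of the library), as deposited, so genes can be set side by side within a library, while the number of reads behind a value is unknown. The groups were compared with limma on log2(FPKM + 1) over 12461 genes whose mean reached 1 FPKM, and a gene was called at an adjusted p under 0.05 with a log2 fold change beyond 0.75. The targeted genes followed the labels. Mapk8 was between 19.2 and 25.1 FPKM in MEC and at 5.93, 3.12 and 1.37 FPKM in lines 199, 233 and 336 (limma, adjusted p = 0.0146), and Mapk9 was between 21.5 and 24.4 against 7.62, 3.15 and 3.07 FPKM (adjusted p = 0.0122). The luminal markers Krt8, Krt18 and Epcam were abundant in every library, whereas the milk protein genes Csn2 and Wap were listed at 0 in all 6. Of 10 tested luminal markers, however, 6 were called lower in MEKO and none higher, and Krt8 and Epcam were among the 6. In these bulk samples fewer cells of a type and less RNA per cell cannot be told apart.

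The 10 genes lie in 2 clusters, and all are transcribed from the minus strand in GENCODE M21 on GRCm38. The type II genes Krt6b, Krt6a, Krt5 and Krt1 lie at chr15:101676023-101850794 and have 9 exons each in the transcripts used here. The type I genes Krt10, Krt13, Krt15, Krt14, Krt16 and Krt17 lie at chr11:99385254-100261029 and have 8 exons each. The paralogs Krt6a and Krt6b are the hardest to tell apart by reads. Over 2223 aligned transcript bases they were 93.4% identical, and 29.5% of all 100-base stretches of Krt6a occurred unaltered in Krt6b. The study's reads were paired and, before trimming, longer than 100 bases, so this is not the share of ambiguous reads. The following 60 coding bases, from bases 876 to 935 of the Krt6a transcript and 881 to 940 of the Krt6b transcript, are shown because the 10 capital letters in each mark where reads could separate the paralogs.
Krt6a: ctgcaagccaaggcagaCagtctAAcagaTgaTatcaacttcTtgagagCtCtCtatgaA
Krt6b: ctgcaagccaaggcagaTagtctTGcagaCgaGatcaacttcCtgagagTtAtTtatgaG

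The other paralog pairs shared less. Krt14 and Krt16 were 86.9% identical and shared 2.88% of their 100-base stretches, Krt5 and Krt6a were 82.4% identical and shared 2.38%, and Krt14 and Krt17 were 83.7% identical and shared no such stretch. Exons of the antisense gene Gm49428 overlap 471 exonic bases of Krt6a, exons of the antisense gene Gm11940 overlap 146 of Krt10, and a predicted miRNA overlaps 129 in each of Krt5, Krt6a and Krt6b. The strand setting of the counting is not given in the sources used here, so reads from these partners cannot be told apart.

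Krt5, Krt14 and Krt17 were the abundant members, and they separated the 3 tumor lines. Line 199 held all 3 at or near MEC levels, line 336 held them at 3.39% to 6.30% of the MEC mean, and line 233 at 0.173% to 1.94%. With this spread among the lines none of the 7 tested members was called by limma between the groups, where 2.64% of all tested genes were called higher and 7.26% lower in MEKO. None of the 7 had an unadjusted p under 0.05 either, and the smallest was 0.0620, for Krt17. The other members, Krt1, Krt10 and Krt13, had a mean under 1 FPKM and were not tested.

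Krt5, the type II partner of Krt14 in basal cells, was at 435, 339 and 201 FPKM in MEC 1, 2 and 3 and at 608, 1.33 and 15.3 FPKM in lines 199, 233 and 336. Line 199 lay above every MEC preparation, while lines 233 and 336 lay 150-fold and 13.1-fold below the lowest of them, so that the groups overlapped. The mean was 325 ± 118 FPKM (SD, n = 3) in MEC and 208 ± 346 FPKM (SD, n = 3) in MEKO. The log2 fold change was -3.45 (SE 1.88), with a limma adjusted p of 0.282.

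Krt14, the type I partner, was at 460, 393 and 289 FPKM in MEC 1, 2 and 3 and at 521, 7.36 and 24.0 FPKM in lines 199, 233 and 336. The order of the lines was that of Krt5, with line 199 above all MEC preparations, line 233 39.2-fold below the lowest and line 336 12.0-fold below it. The group means were 380 ± 86.3 and 184 ± 292 FPKM (SD, n = 3 each). Between the groups the log2 fold change was -2.97 (SE 1.42, limma adjusted p = 0.230).

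Krt17, a type I keratin of basal cells, skin appendages and wounded epidermis, was at 432, 537 and 228 FPKM in MEC 1, 2 and 3 and at 394, 0.691 and 13.6 FPKM in lines 199, 233 and 336. Line 199 was within the MEC range, whereas line 233 lay 330-fold and line 336 lay 16.8-fold below the lowest MEC preparation, the widest range among the lines of any member with a value above 0 in all 3 (571-fold). The log2 fold change was -4.14 (SE 1.83, limma adjusted p = 0.201).

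**Figure D1:**
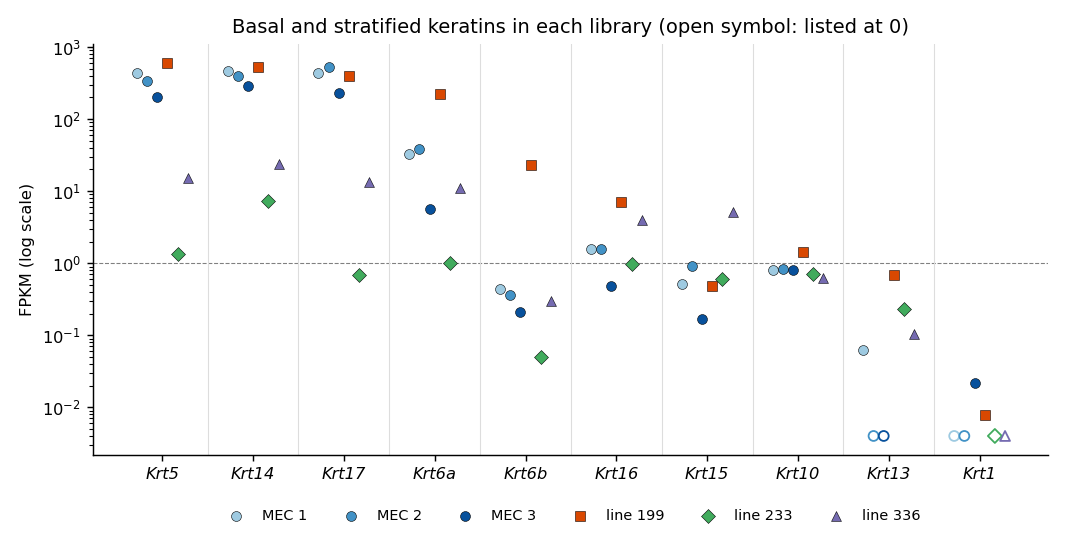
FPKM (log axis) of the 10 keratins in each library, with circles for MEC 1 to 3, squares for line 199, diamonds for line 233 and triangles for line 336. Open symbols at the foot stand for values of 0, and the dashed line marks 1 FPKM. Krt5, Krt14 and Krt17 lie above 200 FPKM in MEC and line 199, and below 24.0 FPKM in lines 233 and 336.

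The spread among the tumor lines exceeded that among the MEC preparations for these genes. On the log2(FPKM + 1) scale the SD of Krt5 was 0.57 in MEC and 4.07 in MEKO, that of Krt14 was 0.34 and 3.09, and that of Krt17 was 0.64 and 3.96 (n = 3 each). With 3 libraries against 3, an exact permutation test (two-sided) cannot give a p below 0.1, and it gave 0.4 for Krt5, 0.4 for Krt14 and 0.2 for Krt17.

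The result of the group test rested on line 199. Without it, the log2 fold change was -5.65 (SE 0.86) for Krt5, -4.70 (SE 0.50) for Krt14 and -6.25 (SE 0.96) for Krt17, with limma adjusted p-values of 0.0145, 0.00553 and 0.0147, so that 3 of the 7 tested members were called lower, beside 10.8% of all tested genes in the same fit. With limma sample weights, which give a library that departs from its group less influence, the same 3 genes were called lower (-5.09, -4.14 and -5.57, adjusted p = 0.0275, 0.0198 and 0.0196), beside 11.1% of all tested genes. Leaving out any other library called none of the 7 members. As the log2 ratio of mean FPKM, a value with no test in which line 199 weighs most, the differences were smaller, at -0.64 for Krt5, -1.05 for Krt14 and -1.55 for Krt17. Each line is 1 library, and nothing was tested for a line by itself.

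**Figure D2:**
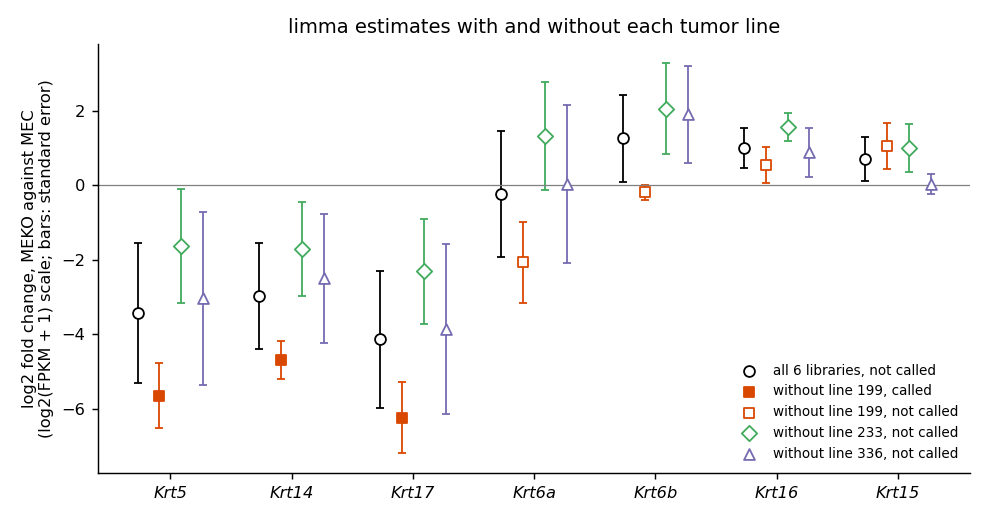
Log2 fold change of MEKO against MEC on the log2(FPKM + 1) scale for the 7 tested members, from limma with all 6 libraries and without each tumor line. Bars are standard errors and filled symbols mark called genes. Krt5, Krt14 and Krt17 are called only in the fits without line 199, at -5.65, -4.70 and -6.25, among the fits plotted.

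Krt6a, Krt6b and Krt16, the keratins of wounded and hyperproliferative epidermis, stood highest in line 199. Krt6a, a type II chain, was at 33.0, 38.8 and 5.70 FPKM in MEC 1, 2 and 3 and at 223, 1.02 and 11.1 FPKM in lines 199, 233 and 336. Line 199 was 5.73-fold above the highest MEC preparation, line 233 was 5.61-fold below the lowest, and line 336 was within the MEC range. The MEC preparations themselves differed 6.81-fold. The log2 fold change was -0.24 (SE 1.70, limma adjusted p = 0.942), and its sign turned when MEC 1 (0.11), MEC 2 (0.22), line 233 (1.32) or line 336 (0.03) was left out, and for the log2 ratio of mean FPKM (1.60).

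Krt6b, the close paralog of Krt6a, was at 0.443, 0.366 and 0.212 FPKM in MEC 1, 2 and 3 and at 22.7, 0.0495 and 0.301 FPKM in lines 199, 233 and 336. Line 199 lay 51.3-fold above the highest MEC preparation, whereas the other lines lay within or below the MEC range, and the mean passed the filter of 1 FPKM through line 199 alone. The log2 fold change was 1.25 (SE 1.17, limma adjusted p = 0.515), and it was -0.19 without line 199. The ratio of Krt6b to Krt6a was between 0.00944 and 0.0371 in MEC and 0.102 in line 199, and since the paralogs share sequence the split between them is uncertain. Added together they were at 33.4, 39.2 and 5.92 FPKM in MEC and at 245, 1.07 and 11.4 FPKM in the lines, with a log2 fold change of -0.20 (SE 1.72, limma adjusted p = 0.955) that turned positive without MEC 1 (0.15), MEC 2 (0.26), line 233 (1.38) or line 336 (0.09).

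Krt16, the type I chain that pairs with Krt6, was at 1.59, 1.58 and 0.483 FPKM in MEC 1, 2 and 3 and at 7.00, 0.972 and 3.96 FPKM in lines 199, 233 and 336. Lines 199 and 336 were above all MEC preparations, by 4.41-fold and 2.49-fold over the highest, and line 233 was within their range. Between the groups the log2 fold change was 0.99 (SE 0.55, limma adjusted p = 0.285). All values of Krt16 were far below those of Krt14 in the same library, at 0.00167 to 0.00402 of the Krt14 level in MEC and 0.0134, 0.132 and 0.165 of it in lines 199, 233 and 336.

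Krt15, a type I keratin of basal cells, was low throughout and highest in line 336. It was at 0.520, 0.919 and 0.168 FPKM in MEC 1, 2 and 3 and at 0.488, 0.598 and 5.09 FPKM in lines 199, 233 and 336. Only line 336 left the MEC range, 5.54-fold above the highest preparation, and it alone carried the mean past 1 FPKM. The log2 fold change was 0.70 (SE 0.59, limma adjusted p = 0.473), and 0.04 without line 336.

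The keratins of suprabasal and mucosal layers were near the bottom of the range and were not tested. Krt10 was at 0.817, 0.833 and 0.813 FPKM in MEC 1, 2 and 3 and at 1.43, 0.709 and 0.622 FPKM in lines 199, 233 and 336. Its partner Krt1 was listed at 0 in 4 of the 6 libraries, with 0.0221 FPKM in MEC 3 and 0.00792 FPKM in line 199. Krt10 was thus present at a low and even level in MEC without a comparable level of Krt1, and the antisense overlap named above applies to Krt10.

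Krt13 was the only one of the 10 whose groups did not overlap. It was at 0.0616, 0 and 0 FPKM in MEC 1, 2 and 3 and at 0.676, 0.234 and 0.104 FPKM in lines 199, 233 and 336. Every line was above every MEC preparation, and every value was under 1 FPKM. This arrangement was found in 18.5% of tested genes, but these had a mean of at least 1 FPKM. Krt13 was not among them, so that share is no background for it. The exact permutation test (two-sided) gave p = 0.1, the smallest it can give here, and limma without the filter gave a log2 fold change of 0.37 with an adjusted p of 0.241. Its usual type II partner Krt4 was lower in every line, at 21.0, 27.2 and 10.1 FPKM in MEC and 1.63, 1.09 and 1.47 FPKM in the lines (log2 fold change -2.99, SE 0.36, limma adjusted p = 0.00628). None of the 7 tested members had every line below every MEC preparation, an arrangement found in 18.7% of tested genes.

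Each line had its own set of members outside the MEC range by more than 4-fold, counted over the 7 tested members and given as a description, since each line is 1 library. In line 199 none lay below and 3 lay above (Krt6a, Krt6b and Krt16), where 5.92% of tested genes lay below and 2.33% above. Krt6b was tested through its value in line 199 alone, so the filter fixed its place there, and 2 of the other 6 members lay above. In line 233 there were 5 below (Krt5, Krt14, Krt17, Krt6a and Krt6b) and none above, where 8.43% of tested genes lay below and 2.34% above. Krt6b was at 0.0495 FPKM there and at 0.212 FPKM in the lowest MEC preparation, both near the floor, so its place is uncertain. In line 336 there were 3 below (Krt5, Krt14 and Krt17) and 1 above (Krt15), where 9.13% of tested genes lay below and 2.31% above. Krt15 was likewise tested through line 336 alone, and none of the other 6 members lay above in that line. Nothing is read from these shares for Krt6b in lines 199 and 233 or for Krt15 in line 336.

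The summed level of the 10 keratins was 1364, 1312 and 725 FPKM in MEC 1, 2 and 3 and 1779, 13.0 and 74.0 FPKM in lines 199, 233 and 336. The simple keratins Krt7, Krt8, Krt18 and Krt19 summed to 7709, 9365 and 5284 FPKM in MEC and to 631, 2801 and 1498 FPKM in the lines. The basal and stratified keratins thus made up 12.1% to 15.0% of both sums in MEC and 73.8%, 0.461% and 4.70% in lines 199, 233 and 336. The ratio of Krt5 to Krt8 was between 0.0994 and 0.171 in MEC, and 2.64, 0.00247 and 0.0342 in lines 199, 233 and 336.

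The make-up of the basal and stratified pool also differed. Krt5, Krt14 and Krt17 held 96.8% to 99.0% of it in MEC and 85.7%, 72.4% and 71.4% in lines 199, 233 and 336. Krt6a, Krt6b and Krt16 held 0.883% to 3.11% in MEC and 14.2%, 15.7% and 20.8% in lines 199, 233 and 336, so that all 3 lines lay above MEC in share although their absolute levels differed 219-fold for Krt6a. A higher share was not a higher level in each line. In line 233 the pool was 13.0 FPKM, Krt6a and Krt6b were below every MEC preparation and Krt16 was within their range. In line 336 Krt6a and Krt6b were within the MEC range. The ratio of Krt6a to Krt5 was 0.0284 to 0.115 in MEC and 0.366, 0.763 and 0.727 in the lines.

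**Figure D3:**
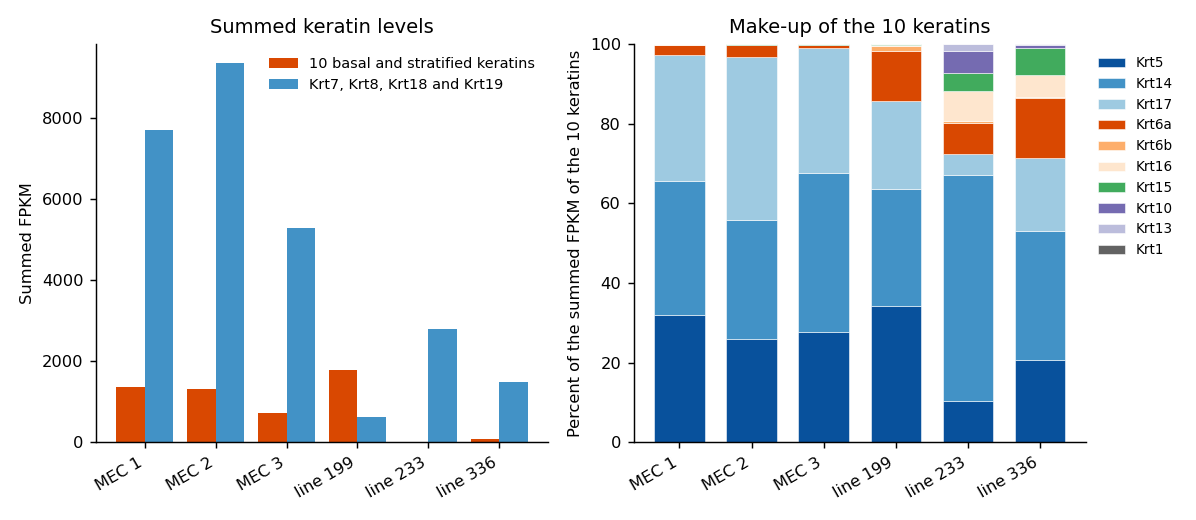
Left, summed FPKM of the 10 basal and stratified keratins (orange bars) and of Krt7, Krt8, Krt18 and Krt19 (blue bars) in each library. Right, the percent of the 10-keratin sum from each gene, where Krt5, Krt14 and Krt17 (blue) make up at least 96.8% in MEC and 71.4% to 85.7% in the lines, and the 10-keratin sum of line 233 is 13.0 FPKM.

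The balance of type II to type I chains spanned a wider range in the lines than in MEC. Type II members amounted to 0.524, 0.405 and 0.399 of type I members in MEC 1, 2 and 3 and to 0.922, 0.227 and 0.564 in lines 199, 233 and 336. Krt5 was 0.947, 0.861 and 0.695 of Krt14 in MEC and 1.17, 0.181 and 0.637 of it in the lines. Line 233 was lowest in both ratios, and there Krt14 alone accounted for 56.8% of the pool.

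The simple keratins were arranged otherwise. Krt8, the luminal type II chain, was at 2547, 3406 and 1844 FPKM in MEC and at 230, 539 and 447 FPKM in lines 199, 233 and 336 (log2 fold change -2.72, SE 0.37, limma adjusted p = 0.0106). Krt19, a luminal type I chain, was between 356 and 1057 FPKM in MEC and between 7.93 and 26.8 FPKM in the lines (log2 fold change -5.34, SE 0.54, adjusted p = 0.00382). Both were below every MEC preparation in all 3 lines and lowest in line 199, the line in which Krt5 and Krt14 were highest. Krt18, the partner of Krt8, was at 3041, 3593 and 2240 FPKM in MEC and 197, 1181 and 586 FPKM in the lines and did not pass the test (-2.49, SE 0.62, adjusted p = 0.0550), and Krt7 was at 1318, 1309 and 844 FPKM in MEC and 196, 1054 and 448 FPKM in the lines (-1.32, SE 0.59, adjusted p = 0.202).

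Among the other keratins, 35 of the 38 listed were in the table, 10 were listed at 0 in every library and 2 were tested. Krt4, given above, was called lower, and Krt80, a type II keratin of differentiating epithelium, was at 35.4, 46.8 and 18.0 FPKM in MEC and 39.4, 22.9 and 13.6 FPKM in the lines (log2 fold change -0.41, SE 0.47, limma adjusted p = 0.604).

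Of 13 tested genes for proteins that anchor keratins at desmosomes and hemidesmosomes, 1 was called lower, a share near the 7.26% of all tested genes. It was the desmosomal plaque protein Pkp2, which was between 25.5 and 32.2 FPKM in MEC and at 13.6, 14.3 and 8.74 FPKM in the lines (log2 fold change -1.24, SE 0.22, limma adjusted p = 0.0219). None was called higher, and the median log2 fold change was -0.65, beside 0.01 over all tested genes.

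Of 23 tested transcription factors and regulators of stratified and mammary epithelium, 2 were called higher and 4 lower, with a median log2 fold change of -0.54. Over all tested genes 2.64% were called higher and 7.26% lower, with a median of 0.01. Elf5, a factor of luminal progenitors and alveolar cells, was between 31.5 and 44.3 FPKM in MEC and at 0.0199, 0 and 0.461 FPKM in lines 199, 233 and 336 (limma adjusted p = 0.000645). Gata3, a luminal factor, was lower in the lines (-2.53, SE 0.58, adjusted p = 0.0435), as was Tfap2c (-2.20, SE 0.23, adjusted p = 0.00408). Hopx was at 0.349, 0.721 and 0 FPKM in MEC and at 5.65, 6.56 and 2.54 FPKM in the lines (2.09, SE 0.37, adjusted p = 0.0217), and Klf4, which acts in barrier formation, was between 7.83 and 12.3 FPKM in MEC and at 30.5, 29.5 and 16.1 FPKM in the lines (1.22, SE 0.29, adjusted p = 0.0487). Hopx passed the filter of 1 FPKM through the lines alone and Elf5 through MEC alone, so nothing is read from the shares for these genes.

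Genes of the cornified layer, the outermost product of squamous differentiation, were called in both directions. Of 14 tested, 2 were called higher and 2 lower, beside 2.64% and 7.26% of all tested genes. Their median log2 fold change was 0.98, beside 0.01 over all tested genes. Cnfn, Sprr2h, Sprr1b, S100a9 and Krtdap had a mean under 1 FPKM in MEC and passed the filter only through the lines. Ivl and Klk7 had a mean under 1 FPKM in the lines and passed only through MEC. The median depends on which genes the filter let in, so nothing is read from it. Sprr1a, a precursor of the cornified envelope, was at 117, 297 and 215 FPKM in MEC and at 7.74, 6.69 and 9.24 FPKM in lines 199, 233 and 336 (-4.48, SE 0.34, limma adjusted p = 0.00168), and Ivl, another envelope precursor, was between 3.37 and 12.8 FPKM in MEC and between 0.237 and 0.708 FPKM in the lines (adjusted p = 0.0229). Tgm1, which cross-links the envelope, was at 4.79, 5.80 and 4.48 FPKM in MEC and at 18.5, 10.6 and 31.9 FPKM in the lines (1.70, SE 0.38, adjusted p = 0.0391), and Cnfn was listed at 0 in all MEC preparations and at 2.46, 8.93 and 2.29 FPKM in the lines (adjusted p = 0.0308). Through the filter Cnfn could only be called higher and Ivl only lower, so nothing is read from the counts for these genes. Other genes of this list were highest in line 199 and not called, among them, named after their values were seen, Sprr1b at 0.101 to 0.510 FPKM in MEC and 16.5, 0.0636 and 1.47 FPKM in lines 199, 233 and 336, and Dmkn at 0.817 to 4.81 FPKM in MEC and 24.9, 2.24 and 3.63 FPKM in the lines. Sprr1b was tested through line 199 alone. The other genes not called did not all run this way. S100a8 was highest in line 336, at 24.0 FPKM. Klk6 and Klk7 were lowest in line 199, at 0.0907 and 0.0416 FPKM, and Lypd3 was below MEC in every line.

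Some, but not all, genes that are expressed with Krt5 and Krt14 in basal cells had a similar arrangement of lines, and those given here were named after their values were seen. Trp63, which encodes the basal factor p63, was at 10.6, 11.3 and 7.94 FPKM in MEC 1, 2 and 3 and at 15.6, 0.0633 and 4.47 FPKM in lines 199, 233 and 336. Col17a1, a hemidesmosomal collagen, was at 30.6, 27.8 and 18.2 FPKM in MEC and at 32.2, 0.0391 and 0.549 FPKM in the lines. Cdh3, P-cadherin, was at 20.3, 21.7 and 16.1 FPKM in MEC and at 41.8, 0.954 and 1.34 FPKM in the lines. None of these passed the limma test, with adjusted p-values of 0.422, 0.211 and 0.350. Other hemidesmosomal genes were arranged otherwise. Itgb4, an integrin chain, was between 45.5 and 76.4 FPKM in MEC and at 44.5, 63.3 and 20.5 FPKM in lines 199, 233 and 336, and its partner Itga6 was between 93.5 and 124 FPKM in MEC and at 96.6, 85.4 and 21.5 FPKM in the lines. Dst, which links keratins to the hemidesmosome, was between 32.0 and 43.4 FPKM in MEC and at 38.2, 27.9 and 50.9 FPKM in the lines.

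The myoepithelial markers were not all arranged alike. Acta2, smooth muscle actin, was at 1120, 1452 and 736 FPKM in MEC and at 719, 1.13 and 1.29 FPKM in lines 199, 233 and 336, close to MEC only in line 199 (limma adjusted p = 0.136). Myh11, smooth muscle myosin, was between 22.4 and 41.8 FPKM in MEC and between 0.0148 and 0.0812 FPKM in the lines (limma adjusted p = 0.000715). The contraction genes Mylk and Oxtr were also called lower (limma adjusted p = 0.00273 and 0.0219). Tagln and Cnn1, named after their values were seen, lay between in line 199. They were at 184 and 16.8 FPKM there, against 361 to 792 and 47.6 to 75.0 FPKM in MEC. Thus 3 of 10 tested markers, Krt5 and Krt14 included in the 10, were called lower and none higher, beside 7.26% and 2.64% of all tested genes. Without Krt5 and Krt14, the markers of this list summed to 1337 to 2611 FPKM in MEC and to 1071, 3.64 and 4.34 FPKM in lines 199, 233 and 336. Acta2 made up 719 FPKM of the sum in line 199. Of 10 tested luminal markers, 6 were called lower and none higher, beside the same 7.26% and 2.64% of all tested genes. The 6 were Prom1 (-3.52, SE 0.40, limma adjusted p = 0.00522), Muc1 (-2.94, SE 0.65, limma adjusted p = 0.0400), Krt8, Krt19, Elf5 and Epcam.

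**Figure D4:**
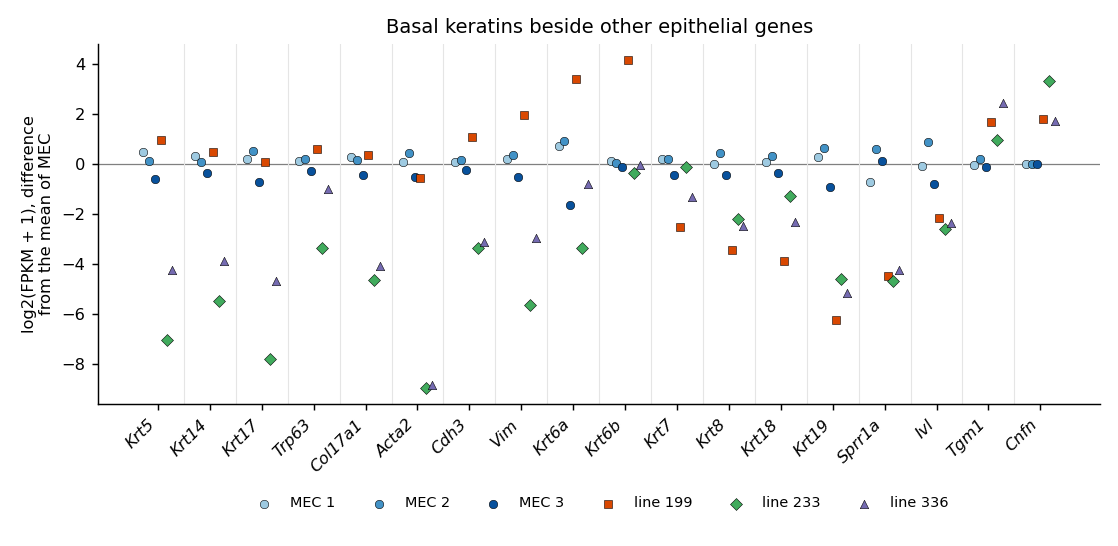
Difference of log2(FPKM + 1) in each library from the mean of the 3 MEC preparations, for basal keratins, other basal and myoepithelial genes, Krt6a and Krt6b, simple keratins and cornified-layer genes. Circles are MEC 1 to 3, squares line 199, diamonds line 233 and triangles line 336. Trp63, Col17a1, Cdh3 and Vim were chosen after their values were seen, and in all 4, as in Krt5 and Krt14, line 199 lies above the MEC preparations while lines 233 and 336 lie below them.

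Markers of other cell types also differed among the lines. Vim, the mesenchymal intermediate filament protein, which myoepithelial cells in culture also make, was at 143, 160 and 86.2 FPKM in MEC and at 496, 1.56 and 15.0 FPKM in lines 199, 233 and 336 (limma adjusted p = 0.452). Of 6 tested intermediate filament genes that are no keratins, 1 was called lower, beside 7.26% of all tested genes. It was Nes, at 21.1 to 33.4 FPKM in MEC and 7.05, 0.622 and 0.0901 FPKM in the lines (limma adjusted p = 0.0331). The 8 fibroblast markers summed to 98.8 to 191 FPKM in MEC and to 1100, 2.40 and 4.22 FPKM in the lines, and 5 of the 8 were above every MEC preparation in line 199, with Col1a1 at 600, Col1a2 at 408, Col3a1 at 71.5, Pdgfrb at 19.0 and Pdgfra at 1.31 FPKM. The other 3, Dcn, Lum and Dpt, were at 0.311, 0.0264 and 0.0120 FPKM in line 199, below their values in MEC 1 and 2, and Dcn was called lower in MEKO (adjusted p = 0.00821). The 7 leukocyte markers in the table summed to 106 to 138 FPKM in MEC and 7.33, 11.2 and 60.8 FPKM in the lines, of which Cd14 made up most, and Lyz2 and Cd14 were called lower (adjusted p = 0.000940 and 0.0435). Cd68 was tested and not called. It was between 3.46 and 6.59 FPKM in MEC and at 0.771, 2.73 and 23.5 FPKM in lines 199, 233 and 336, above every MEC preparation in line 336. The endothelial markers summed to 2.30 to 22.1 FPKM in MEC and at most 2.05 FPKM in the lines, and the adipocyte markers to 1.48 to 11.8 and at most 1.19 FPKM. The part of these cell types in the keratin values was not tested.

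The genes whose values ran most nearly parallel to the basal keratins were found by Pearson correlation of log2(FPKM + 1) over the 6 libraries, as a description. For Krt5 these were Erf (r = 0.997), Bcl7c (0.996), Krt14 (0.995), Glipr2 (0.992) and Nmnat3 (0.992), and for Krt14 they were Pdlim1 (0.998), Map3k3 (0.997), Lepre1 (0.995), Krt5 (0.995) and Bcl7c (0.995). Some of these had a narrow range, as Erf did at 16.1 to 28.1 FPKM, while Pdlim1 ran from 130 to 157 FPKM in MEC and was at 212, 2.16 and 7.79 FPKM in lines 199, 233 and 336. For Krt6a they were Impdh1 (0.994), Dpy30 (0.994), Ccdc109b (0.990), Cdh13 (0.988) and H1fx (0.985).

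Genes beside the keratin clusters were summarized by medians, which cannot be set against single genes such as Krt5. Over all tested genes the median log2 fold change of MEKO against MEC was 0.01. Copy number at the clusters was not tested here. For the 46 tested protein-coding genes within 1 Mb of the type I members, keratins left out, the median log2 difference from MEC was -0.05, -0.11 and -0.35 in lines 199, 233 and 336. For the 21 such genes around the type II members it was 0.08, 0.16 and -0.06.

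Promoter sequence at or within 10 bases of the annotated gene start was at hand in RefSeq windows for 3 of the 10 genes, Krt5, Krt10 and Krt13. The 100 bases before the start site (GRCm38.p6, minus strand) are shown because these genes span the range from the abundant Krt5 to the nearly silent Krt13. Capitals mark the letters ATAAA, chosen after the windows were seen, which begin 29, 25 and 29 bases before the RefSeq start. That start lies 7 bases upstream of the GENCODE gene start for Krt5 and at the GENCODE start for Krt10 and Krt13. The stretches are chr15:101712906-101713005 for Krt5, chr11:99389365-99389464 for Krt10 and chr11:100121567-100121666 for Krt13.
Krt5: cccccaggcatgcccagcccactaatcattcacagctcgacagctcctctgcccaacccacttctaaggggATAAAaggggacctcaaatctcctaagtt
Krt10: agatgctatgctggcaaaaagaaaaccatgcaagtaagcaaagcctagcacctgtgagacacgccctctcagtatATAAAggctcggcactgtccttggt
Krt13: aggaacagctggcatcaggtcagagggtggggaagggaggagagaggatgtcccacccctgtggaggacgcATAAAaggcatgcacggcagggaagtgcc

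ATAAA on the gene's strand, beginning 40 to 20 bases before the start, was present in 4.25% of 32851 mouse promoter windows. The letters GGGCGG, on either strand, were in 35.7% of all windows and TGACTCA, on either strand, in 5.20%, and neither was in the windows of these 3 genes, which run from 250 bases before to 50 bases after the start.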

How the data were processed

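The authors trimmed paired-end reads with Trimmomatic, aligned them to GRCm38 with Bowtie2 and TopHat2 2.0.14, and quantified genes with Cufflinks 2.2.1. Their annotation is not given in the sources used here. The deposited table holds FPKM, which the authors scaled to the length of the transcript and the size of the library, so read depth is unknown and no count model was used. Of 37755 entries, 2 held no values.

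MEKO was compared with MEC in R 4.3.3 with limma 3.58.1 on log2(FPKM + 1), using the trend option, with p-values adjusted by Benjamini-Hochberg over 12461 genes whose mean reached 1 FPKM. A tested gene with a mean under 1 FPKM in either group passed this filter through the other group alone. Of the called genes named here, these were Cnfn and Hopx through the lines. Through MEC they were Elf5, Ivl, Myh11, Mylk, Oxtr, Prom1, Dcn and Lyz2. Nothing is read from the shares for them. The script was tested on simulated data. The 3 libraries of a group are separate preparations or lines, no batch or date is given, and any batch split along the groups would be confounded with them.

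The members and gene lists were chosen with earlier results of these data known. The text names every member, other keratins with a mean of at least 10 FPKM, up to 4 called genes of each list with the largest change, the 5 genes most correlated with Krt5, Krt14 and Krt6a, and Mapk8 and Mapk9; any other gene was named after its values were seen. One gene counted in a list is not reported here by name. Alternatives were a pseudocount of 0.1, no filter, a filter at 5 FPKM, quantile normalization, upper-quartile scaling, no trend, sample weights, the log2 ratio of means, summed entries and each library left out. Positions and identities come from GENCODE M21 with Biopython 1.88, and promoters from RefSeq.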

Additional observations from a re-analysis of the deposited data

How the results depend on the processing

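Krt5, Krt14 and Krt17 kept a negative log2 fold change in every setting run, without a call in any other than the sample weights (-5.09, -4.14 and -5.57) and the fit without line 199. With 1 library left out, the estimates ran from -5.65 to -1.64 for Krt5, from -4.70 to -1.71 for Krt14 and from -6.25 to -2.31 for Krt17. The ranges were 0.04 to 1.05 for Krt15, 0.54 to 1.55 for Krt16, -0.19 to 2.06 for Krt6b (reversed without line 199), -2.08 to 1.32 for Krt6a and, for Krt6a and Krt6b summed, -2.07 to 1.38. The last pair reversed without MEC 1 (0.11 for Krt6a and 0.15 summed), MEC 2 (0.22 and 0.26), line 233 (1.32 and 1.38) and line 336 (0.03 and 0.09). By the log2 ratio of mean FPKM, which the highest library dominates, Krt6a reversed to 1.60, Krt15 moved to 1.94 and Krt6b to 4.50, and Krt5, Krt14 and Krt17 were at -0.64, -1.05 and -1.55 in place of -3.45, -2.97 and -4.14.

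The count of called genes was 1234 (329 higher, 905 lower), and 3509 genes had an unadjusted p under 0.05. It was 738 with a filter at 5 FPKM, 1978 with sample weights (600 higher, 1378 lower), and 300 to 1886 with 1 library left out, the lowest without MEC 1 and the highest without line 199. Quantile normalization gave 477 higher and 783 lower and put the median log2 fold change of all genes at 0.10. The cause of these shifts was not tested. No paired analysis was possible because the groups share no replicate numbers.

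Depth is unknown, so values under 1 FPKM, which include all of those of Krt1 and Krt13, carry an unknown counting error. A difference that misses the threshold with 3 libraries a group does not show equal expression, and none of the comparisons of a single line with MEC has a replicate.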
